A study of Mus musculus with 15 samples.

Results

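The enzymes that prepare and form the cross-links of collagen were followed through 5 mesenchymal populations of mouse thymus and lymph node. The 8 genes sought were the lysyl oxidases Lox, Loxl1, Loxl2, Loxl3 and Loxl4 and the lysyl hydroxylases Plod1, Plod2 and Plod3. A gene was taken from the rows of the array table whose annotation gives exactly 1 gene symbol, and where a gene had several such rows the row with the highest mean over the 15 arrays was kept. By this rule 7 of the 8 genes were measured, 4 lysyl oxidases and 3 lysyl hydroxylases, out of 18718 genes in the table. Loxl3 is given no value, because both of its 2 rows also carry the symbol of another gene.

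Lysyl hydroxylases act inside the endoplasmic reticulum, where they add hydroxyl groups to lysines of procollagen chains before the triple helix closes. Lysyl oxidases are secreted, copper-dependent amine oxidases that turn lysines and hydroxylysines of collagen, and lysines of elastin, into reactive aldehydes, from which cross-links then form. Fibroblasts of capsules and vessel walls and the reticular cells of lymphoid organs, which ensheath collagen fibres, are known producers of such matrix.

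Cells came from C57BL/6 mice aged 2 weeks and were sorted as PDGFRβ+ mesenchyme after liberase TM and DNase I digestion. The thymus gave a podoplanin-positive, BP3-negative population (PDPN+BP3-) and a podoplanin-negative, Ly51-positive population (PDPN-). From lymph nodes (inguinal, axillary and brachial, pooled) came 3 populations: PDPN+BP3-, PDPN+BP3+ and Ly51-positive PDPN- cells. Thymic and nodal below name the organ of a population. Each population had 3 arrays from 3 separate experiments, and each RNA came from a pool of 3 mice (thymus) or 10 to 11 mice (lymph node), which leaves tissue and pool size confounded; they cannot be told apart, and all values are averages over sorted cells.

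The genes of the sort antigens followed the labels on every array. Pdpn read 7.90 to 9.19 in the PDPN+ populations and 2.77 to 3.48 in the PDPN- populations, Bst1, the gene of BP3, read 8.56 to 8.94 in PDPN+BP3+ cells and 2.06 to 3.80 elsewhere, and Enpep, the gene of Ly51, read 7.63 to 8.15 in PDPN- and 3.36 to 4.77 in PDPN+ cells. Pdgfrb read 8.79 or more on all arrays. Values are RMA signals on a log2 scale, and they are compared between populations for 1 gene, never between genes. Replicate 1 of thymic PDPN+BP3- stood apart with an array median of 3.58, the lowest, against at most 3.885, and it was the lowest array of its group for 6 of the 7 genes, all but Plod1. For the thymic subset comparison, the 2 comparisons of nodal PDPN+ cells with this group and the interaction, results are also given without it where that changes a call.

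Lox, the founding lysyl oxidase, which cross-links fibrillar collagen and elastin, was high in the PDPN+BP3- cells of both tissues and low in the other populations. Its signal was 8.52, 9.11 and 9.11 in thymic PDPN+BP3- cells and 9.02, 8.85 and 8.70 in nodal PDPN+BP3- cells. It was 6.77, 6.17 and 6.46 in nodal PDPN- cells, 6.61, 6.44 and 6.28 in nodal PDPN+BP3+ cells and 6.33, 5.81 and 5.87 in thymic PDPN- cells. All 6 PDPN+BP3- arrays lay above the other 9 arrays, and the lower populations overlapped. In the order of means, 8.91 ± 0.34, 8.86 ± 0.16, 6.47 ± 0.30, 6.44 ± 0.17 and 6.00 ± 0.28 (SD, n = 3 each), the step from nodal PDPN+BP3- to nodal PDPN- cells was the sole step between neighbours to pass the test (2.39 ± 0.19, adjusted p 6.04e-08).

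Loxl1, known from mouse knockouts for the upkeep of elastic fibres, separated the populations more finely. It read 8.83, 8.90 and 8.90 in lymph node and 8.50, 8.99 and 9.04 in thymic PDPN+BP3- cells, and 8.23, 8.21 and 8.17 in nodal PDPN+BP3+ cells. In PDPN- cells it read 6.01, 6.23 and 6.00 in lymph node and 4.75, 4.83 and 4.21 in thymus. The PDPN+ arrays all lay above the PDPN- arrays, and the PDPN- arrays of the tissues did not overlap. The means were 8.88 ± 0.04, 8.84 ± 0.30, 8.20 ± 0.03, 6.08 ± 0.13 and 4.60 ± 0.34 (SD, n = 3), and every step of this order except the first passed. The first, between the PDPN+BP3- cells of the tissues, was 0.03 with a 95% interval for lymph node minus thymus of -0.31 to 0.37.

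Loxl2, which is also known to act on type IV collagen of basement membranes, was set apart by 1 population in which it was low. It read 6.81, 6.58 and 6.69 in nodal PDPN+BP3+ cells. On the other 12 arrays it lay between 8.23 and 9.17, in thymic PDPN+BP3- cells (9.07 ± 0.13), nodal PDPN+BP3- cells (8.60 ± 0.11), thymic PDPN- cells (8.50 ± 0.07) and nodal PDPN- cells (8.28 ± 0.09; SD, n = 3). The first and last steps of the order passed, and the steps between nodal PDPN+BP3-, thymic PDPN- and nodal PDPN- cells did not. A second, dim row of Loxl2 read 2.25 to 3.05 over all arrays and was also lowest in PDPN+BP3+ cells, at 2.25 to 2.52. Because this row varied little, the differences given below with both rows averaged are smaller than those of the kept row.

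Loxl4, a less studied relative with scavenger receptor domains like Loxl2, was dim. It read 4.08, 4.69 and 5.73 in thymic PDPN+BP3- cells, a wide spread for 1 population, and 3.71, 3.20 and 3.88 in nodal PDPN+BP3- cells. In the other 3 populations it stayed between 2.38 and 2.91. The means, 4.83 ± 0.83, 3.60 ± 0.35, 2.64 ± 0.24, 2.63 ± 0.16 and 2.46 ± 0.10 (SD, n = 3), lay below the table's median of 3.80 in all populations but thymic PDPN+BP3- cells, and the first and second steps of the order passed. Its second row gave 4.16 to 4.67 in thymus and 3.32 to 3.84 in nodal PDPN+BP3- cells and 2.48 to 2.94 elsewhere.

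Among the hydroxylases, Plod1, which acts on lysines of the collagen helix, was ordered by tissue. It read 9.15, 9.02 and 9.02 in thymic PDPN+BP3- cells and 7.80, 7.74 and 7.68 in thymic PDPN- cells. The lymph node arrays lay between 6.28 and 7.10, all below the thymus arrays. The means were 9.06 ± 0.08 and 7.74 ± 0.06 in thymus and 6.92 ± 0.16, 6.75 ± 0.12 and 6.55 ± 0.26 in nodal PDPN+BP3-, PDPN- and PDPN+BP3+ cells (SD, n = 3). The steps within the thymus and from thymus to lymph node passed (1.32 ± 0.13, adjusted p 5.50e-07, and 0.82 ± 0.13, adjusted p 1.11e-04), and the steps within the lymph node did not.

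Plod2, the hydroxylase of collagen telopeptides, was high in thymic PDPN+BP3- and in nodal PDPN+BP3+ cells. It read 7.34, 7.84 and 7.67 in the former and 7.42, 7.40 and 7.16 in the latter, and these groups overlapped. It read 6.37, 6.45 and 6.25 in nodal PDPN+BP3- cells, 5.96, 6.02 and 5.86 in thymic PDPN- cells and 5.96, 5.64 and 5.62 in nodal PDPN- cells. The means were 7.62 ± 0.25, 7.33 ± 0.14, 6.36 ± 0.10, 5.95 ± 0.08 and 5.74 ± 0.19 (SD, n = 3), and the second step and the third passed (0.97 ± 0.14, adjusted p 6.27e-05, and 0.41 ± 0.14, adjusted p 0.0390). The first step, 0.29 ± 0.14, did not pass (adjusted p 0.131), but it passed in 4 of 14 alternatives: after cyclic loess (adjusted p 0.000881), after quantile scaling (adjusted p 0.00291), with array weights (adjusted p 0.016) and without thymic PDPN+BP3- replicate 1 (adjusted p 0.0258).

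Plod3, which has glycosyltransferase as well as hydroxylase activity, varied least. Its arrays read 6.52 to 6.97 in thymic PDPN+BP3-, 6.60 to 6.88 in nodal PDPN+BP3+, 6.46 to 6.64 in nodal PDPN+BP3-, 6.28 to 6.51 in nodal PDPN- and 6.23 to 6.58 in thymic PDPN- cells. No step of its order passed, and its means spanned 0.45, against 0.45 for the widest range within 1 of its groups. Over all 7 genes, 12 of the steps between neighbouring populations passed, and 10 to 13 with 1 array left out.

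**Figure D1:**
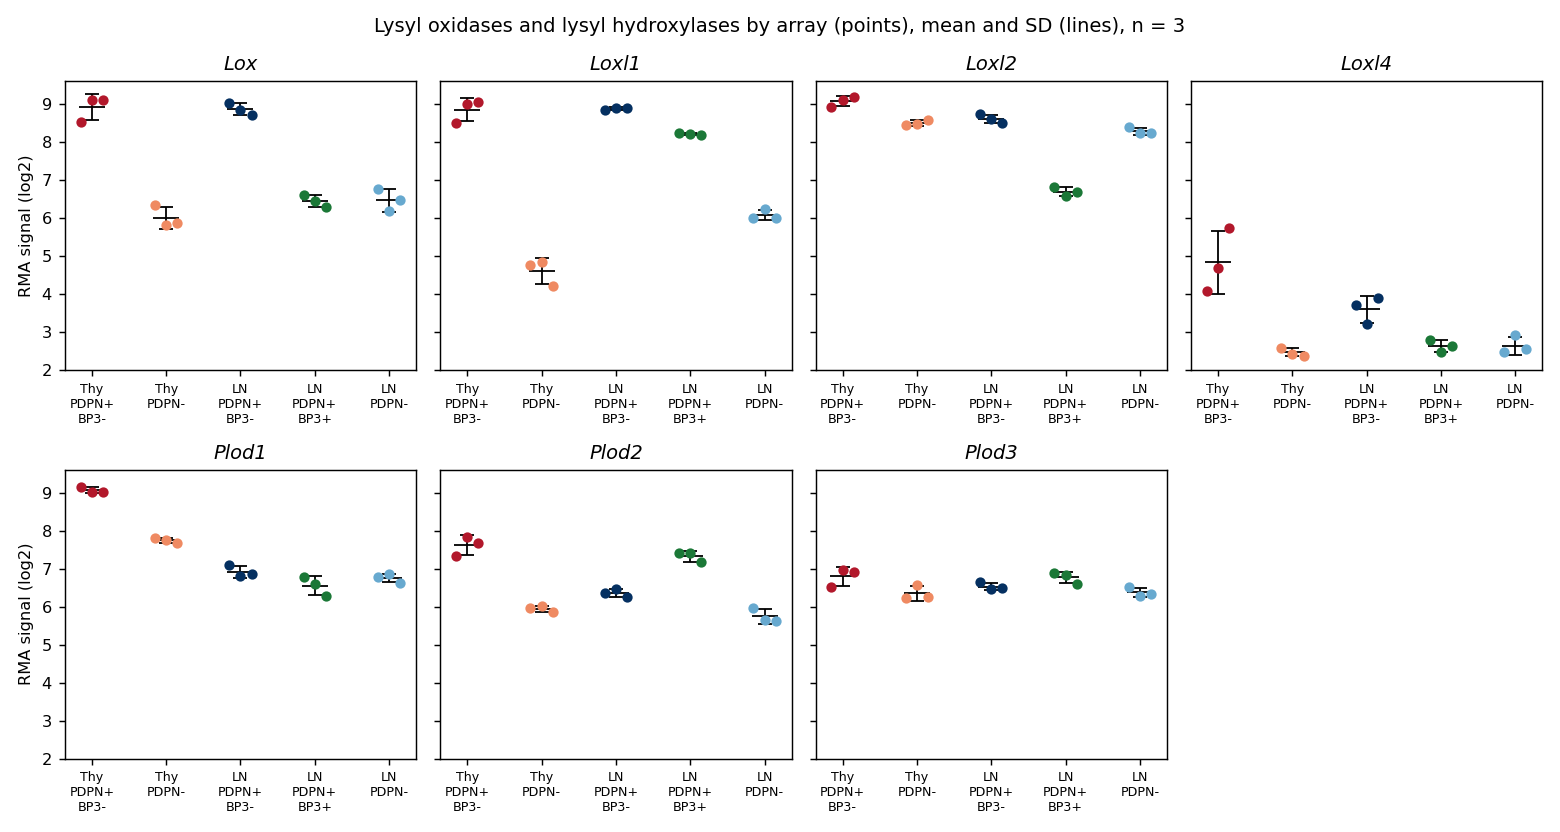
RMA signal on a log2 scale of each measured gene in the 5 populations, thymus (Thy) and lymph node (LN); points are arrays and black lines the mean and SD of 3 arrays. Lox is high in the PDPN+BP3- cells of both tissues, Loxl2 is low only in nodal PDPN+BP3+ cells at 6.58 to 6.81, Plod1 is highest in thymus, and the means of Plod3 span 0.45.

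Promoter windows of 3 of these genes, from a RefSeq table (build GRCm38.p6), are shown, and those of the other genes are not reported here. The 3 were not chosen for their expression. Plod1 differed with tissue in both subsets and Loxl4 among PDPN+BP3- cells, while Plod3 varied least. Each window runs from 250 bases before to 50 bases after the annotated start, read 5′ to 3′ on the gene's strand, and lies at chr19:42612757-42613056 (minus strand) for Loxl4, chr4:147936727-147937026 (minus strand) for Plod1 and chr5:136986769-136987068 (plus strand) for Plod3. Capitals mark matches, on either strand, to 3 motifs: the GC box GGGCGG, the core of hypoxia response elements ACGTG and the TATA box TATAAA.
Loxl4: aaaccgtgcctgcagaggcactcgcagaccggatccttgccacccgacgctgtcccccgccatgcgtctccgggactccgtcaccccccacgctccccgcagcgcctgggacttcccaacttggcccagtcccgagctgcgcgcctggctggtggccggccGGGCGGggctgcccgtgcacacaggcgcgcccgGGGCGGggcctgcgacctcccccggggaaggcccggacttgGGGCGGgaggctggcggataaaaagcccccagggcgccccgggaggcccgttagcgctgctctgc
Plod1: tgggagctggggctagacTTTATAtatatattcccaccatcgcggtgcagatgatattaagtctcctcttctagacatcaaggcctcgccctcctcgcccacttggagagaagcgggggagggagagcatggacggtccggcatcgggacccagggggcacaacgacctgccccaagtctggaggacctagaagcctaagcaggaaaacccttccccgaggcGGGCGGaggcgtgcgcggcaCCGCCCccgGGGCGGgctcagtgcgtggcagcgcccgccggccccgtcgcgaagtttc
Plod3: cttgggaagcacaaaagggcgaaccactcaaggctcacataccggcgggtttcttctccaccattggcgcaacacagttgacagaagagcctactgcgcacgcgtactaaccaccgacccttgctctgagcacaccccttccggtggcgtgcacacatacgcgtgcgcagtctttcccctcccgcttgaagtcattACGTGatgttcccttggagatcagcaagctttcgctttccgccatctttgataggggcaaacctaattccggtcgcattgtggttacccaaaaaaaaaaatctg
Loxl4 and Plod1 hold 3 matches each to the GC box and no match to ACGTG, Plod1 holds 1 match to TATAAA far upstream of the start, and Plod3 holds 1 match to ACGTG and none to the GC box. No match overlaps another. Of 32851 promoters of the same length, 35.7% hold GGGCGG, 19.6% ACGTG and 13.6% TATAAA. The bases are 75.0% G or C in the Loxl4 window, 64.3% in Plod1 and 53.3% in Plod3.

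How podoplanin-positive and podoplanin-negative mesenchyme differ was asked first within the thymus. All 7 genes had higher signals in the PDPN+BP3- cells. Of all tested genes 28.5% passed, 10.3% as higher and 18.2% as lower. Each difference, here and below, is on the log2 scale, followed by its standard error from limma fitted to all arrays, with adjusted p after the Benjamini-Hochberg method over all genes and n = 3 arrays per population. Loxl1 differed most (4.25 ± 0.16, adjusted p 5.12e-12), then Lox (2.91 ± 0.19, adjusted p 3.67e-09) and Loxl4 (2.37 ± 0.29, adjusted p 8.87e-06). Plod2 (1.67 ± 0.14, adjusted p 6.43e-08) and Plod1 (1.32 ± 0.13, adjusted p 5.50e-07) followed, and Loxl2 was higher by 0.57 ± 0.11 (adjusted p 6.38e-04). The arrays of the populations were separate for 6 of these genes, as for 38.3% of all genes.

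Plod3 was higher by 0.45 ± 0.14 (adjusted p 0.0229), with overlapping arrays. This call did not pass in a fit on these groups alone (adjusted p 0.0800) or without any 1 of thymic PDPN- replicates 1 and 3 and PDPN+BP3- replicates 2 and 3 (adjusted p 0.0724 to 0.0938), and the difference was 0.70 after cyclic loess. For Loxl2 the difference was 0.34 when its bright and dim rows were averaged. Of all calls in this comparison 64.0% were lower in PDPN+BP3- cells, and 44.5% after cyclic loess. All 7 genes stayed higher in PDPN+BP3- cells under that scaling, where 14.5% of all genes passed as higher. All 10 pericyte and smooth muscle markers, called pericyte markers for short below, were lower in PDPN+BP3- cells. Their list means per array were 5.49 to 5.67 against 9.24 to 9.43. All 6 fibroblast markers were higher, with 9.95 to 10.15 against 3.95 to 4.47. Of the T lineage and epithelial markers 2 of 6 and 3 of 6 were lower. Their part in the difference was not tested. In sorted pools, a smaller share of expressing cells and less RNA per cell cannot be told apart.

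Of the substrates, fibrillar and basement membrane collagens were counted apart. Of 12 fibrillar collagen and elastin genes 8 were higher in PDPN+BP3- cells and none lower (median 1.04, against -0.05 over all genes), among them the type I collagen chains Col1a1 (3.21 ± 0.13) and Col1a2 (1.91 ± 0.11) and the type III chain Col3a1 (2.03 ± 0.13). Of the 6 type IV chains, which form basement membranes, Col4a2 (-0.98 ± 0.14) and Col4a1 (-0.93 ± 0.18) were lower and Col4a3 (0.47 ± 0.11) was higher.

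Other genes of collagen modification were mostly higher too. Of 16 measured genes for prolyl hydroxylation, glycosylation and folding, 12 were higher and 3 lower in thymic PDPN+BP3- cells (median 0.72). The prolyl 4-hydroxylase subunit P4ha2 was higher (2.39 ± 0.22), while the prolyl 3-hydroxylase P3h2 (-2.57 ± 0.18) and the collagen galactosyltransferase Colgalt2 (-1.60 ± 0.16) were lower. Of 13 genes for procollagen processing and for activating or placing lysyl oxidases, 12 were higher and 1 lower (median 1.18). They included Fbln5, a fibulin known to tether Loxl1 on elastic fibres (4.87 ± 0.19), the tenascin Tnxb (3.44 ± 0.19) and the procollagen C-proteinase enhancer Pcolce2 (5.28 ± 0.32). In the list of copper handling and other copper amine oxidases 2 of 8 genes were lower and none higher, the vascular amine oxidase Aoc3 (-2.38 ± 0.14) and Aoc2 (-0.68 ± 0.15).

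The same comparison within the lymph node gave a smaller set. Here 5 of the 7 genes had higher signals in the PDPN+BP3- cells and none a lower one. Of all genes 23.1% passed, 13.4% as higher and 9.79% as lower. Loxl1 (2.80 ± 0.16, adjusted p 1.20e-09) and Lox (2.39 ± 0.19, adjusted p 6.04e-08) differed most, and Plod2 was higher by 0.62 ± 0.14 (adjusted p 0.00291). Plod1 (0.16, 95% interval -0.11 to 0.44, adjusted p 0.444) and Plod3 (0.15, 95% interval -0.14 to 0.45, adjusted p 0.520) did not pass. The arrays were separate for 5 genes, as for 34.6% of all genes.

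The remaining lymph node calls were less stable. Loxl4 was higher by 0.96 ± 0.29 (adjusted p 0.0246), but not past the threshold without any 1 of PDPN- replicates 1 and 3 and PDPN+BP3- replicates 1 and 3 (adjusted p 0.0717 to 0.0983). Loxl2 was higher by 0.32 ± 0.11 (adjusted p 0.0383) and passed in 4 of its 14 alternatives (adjusted p 0.0162 to 0.160). It was lost when any 1 of PDPN- replicates 2 and 3 and PDPN+BP3- replicates 1 and 2 was left out. Without PDPN- replicate 3 or without PDPN+BP3- replicate 1, 3 of the 7 genes were higher, namely Lox, Loxl1 and Plod2. All 10 pericyte markers were lower and all 6 fibroblast markers higher in PDPN+BP3- cells, and 5 of 7 endothelial markers were higher, with a list mean of 4.28 to 4.73 per array against 3.08 to 3.67 in PDPN- cells; their part in the result was not tested.

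Of the substrates 6 of 12 were higher and 1 lower in nodal PDPN+BP3- cells (median 0.44, against -0.01 over all genes), with Col1a2 at 1.47 ± 0.11, Col1a1 at 1.43 ± 0.13 and Col3a1 at 1.37 ± 0.13. Of the 16 modification and folding genes 10 were higher and 3 lower (median 0.61), with P4ha2 higher (2.34 ± 0.22) and Colgalt2 (-2.69 ± 0.16) and Tmem38b, a channel of the endoplasmic reticulum (-2.26 ± 0.24), lower. Of the 13 processing genes 10 were higher and 1 lower (median 0.88). Fbln5 (4.50 ± 0.19) and Pcolce2 (4.21 ± 0.32) were higher, and the procollagen N-proteinase Adamts14 was lower (-2.07 ± 0.11). The copper transporter Atp7a, which loads copper onto secreted enzymes, was lower (-1.37 ± 0.15), among 4 of 8 genes of its list that were lower and none that was higher.

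Whether the subset difference depends on tissue was tested by the interaction, the lymph node difference minus the thymus difference. The subset difference was smaller in lymph node for 4 of the 7 genes and larger for none, where 12.7% of all genes passed, 8.67% with a positive and 4.05% with a negative sign. These were Loxl1 (-1.45 ± 0.23, adjusted p 4.00e-04), Plod1 (-1.16 ± 0.18, adjusted p 4.02e-04), Plod2 (-1.05 ± 0.19, adjusted p 0.00153) and Loxl4 (-1.41 ± 0.41, adjusted p 0.0345). Lox (-0.52 ± 0.27, adjusted p 0.246), Loxl2 (-0.25 ± 0.15, adjusted p 0.342) and Plod3 (-0.29 ± 0.20, adjusted p 0.389) did not pass. All 7 values were negative, but the genes share the 12 arrays.

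The interaction moved with scaling. Of all interaction calls 31.8% were negative, and 57.8% after cyclic loess. Under that scaling 7 of the 7 genes passed, where of all tested genes 6.37% passed with a negative and 4.65% with a positive sign. Loxl4 passed in 13 of 20 alternatives (adjusted p 0.00238 to 0.0971). It did not pass in a fit on the 4 groups alone or when any 1 of thymic PDPN- replicates 1, 2 and 3, nodal PDPN- replicate 2 and nodal PDPN+BP3- replicates 1 and 2 was left out. Loxl1, Plod1 and Plod2 passed in all 20, Plod3 in 2, and Lox and Loxl2 in 1 each. Of the markers 6 of 6 for fibroblasts had lower interaction values. For pericytes 8 of 10 had higher values and 1 a lower value. The part of these markers was not tested. For Loxl1 the PDPN+BP3- means of the tissues were 8.84 and 8.88, while the PDPN- means were 4.60 in thymus and 6.08 in lymph node. For Plod2 the PDPN- means were 5.95 and 5.74, while the PDPN+BP3- means were 7.62 in thymus and 6.36 in lymph node.

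Genes of the pathway differed in the interaction in both directions. P3h2 had a higher value (2.27 ± 0.25; its subset difference was -2.57 in thymus and -0.29 in lymph node), and the prolyl 4-hydroxylase subunit P4ha3 (-2.75 ± 0.32) and Colgalt2 (-1.09 ± 0.22) had lower values, out of 16 genes of their list. Of the substrates 4 of 12 had lower values and 1 a higher value (median -0.34, against 0.06 over all genes), among them Col1a1 (-1.78 ± 0.18), elastin, Eln (-1.75 ± 0.19), and Col5a3 (-1.17 ± 0.19). Of the 13 processing genes 4 had lower values and 1, the collagen-binding proteoglycan Fmod (3.23 ± 0.25), a higher value.

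**Figure D2:**
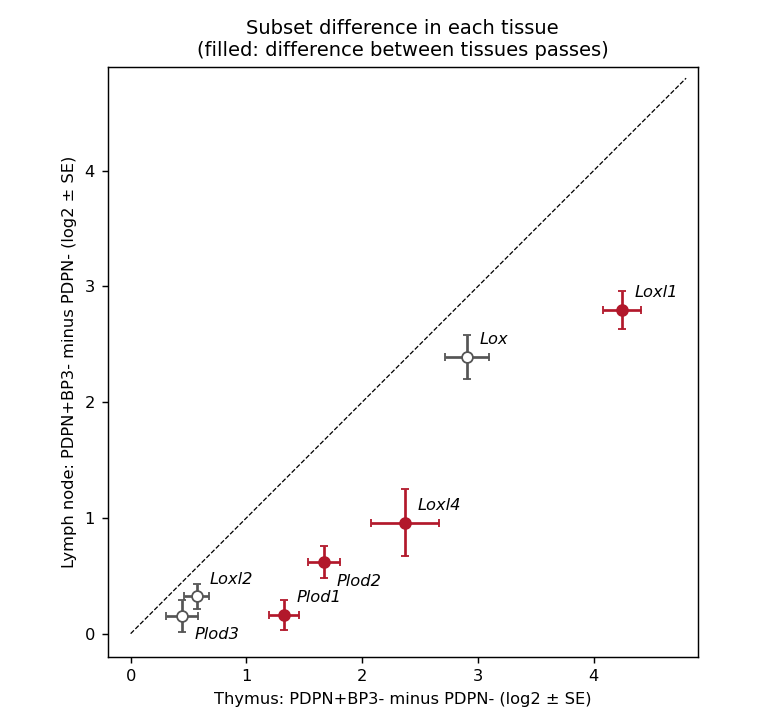
Log2 difference between PDPN+BP3- and PDPN- cells in thymus (x axis) and lymph node (y axis) with standard errors of the fit; the dashed line marks equal differences. All 7 genes lie below the line, and the 4 filled genes, Loxl1, Loxl4, Plod1 and Plod2, passed the test of the difference between the tissues.

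What goes with BP3 among podoplanin-positive lymph node cells was asked next, and here the oxidases and Plod2 went opposite ways. All 4 lysyl oxidases were lower in PDPN+BP3+ than in PDPN+BP3- cells and Plod2 was higher, where 16.2% of all genes passed, 7.74% as lower and 8.49% as higher. Lox differed most (-2.41 ± 0.19, adjusted p 8.99e-08), then Loxl2 (-1.91 ± 0.11, adjusted p 1.61e-09), Loxl4 (-0.97 ± 0.29, adjusted p 0.0316) and Loxl1 (-0.67 ± 0.16, adjusted p 0.00705). Plod2 was higher by 0.97 ± 0.14 (adjusted p 6.27e-05). Plod1 (-0.36, 95% interval -0.64 to -0.09, adjusted p 0.0700) and Plod3 (0.24, 95% interval -0.05 to 0.53, adjusted p 0.323) did not pass after adjustment. The arrays were separate for 6 genes, as for 32.9% of all genes.

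Loxl4 was not past the threshold without PDPN+BP3- replicate 1 or 3 or without PDPN+BP3+ replicate 1, 2 or 3 (adjusted p 0.0548 to 0.133), while Plod1 passed without PDPN+BP3+ replicate 1 (-0.48, adjusted p 0.0231). For Loxl2 the difference was -1.21 with its rows averaged. All 6 fibroblast markers were lower in PDPN+BP3+ cells, and 5 of 10 pericyte and smooth muscle markers were higher. Of the endothelial markers 5 of 7 were lower, with endothelial list means of 3.37 to 3.56 against 4.28 to 4.73. Their part in the result was not tested.

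Of the substrates 7 of 12 were lower in PDPN+BP3+ cells and none higher (median -0.83, against 0.01 over all genes), such as Col3a1 (-1.44 ± 0.13), Col5a2 (-1.16 ± 0.11) and Col1a1 (-1.13 ± 0.13). Of the modification and folding genes 7 of 16 were lower, such as P3h2 (-1.24 ± 0.18) and P4ha1 (-1.20 ± 0.17), and 1 was higher, P4ha3 (2.40 ± 0.22). Of the processing genes 7 of 13 were lower and 4 higher (median -0.40). Pcolce2 (-4.00 ± 0.32), Fbln5 (-2.04 ± 0.19) and Postn, the matricellular protein periostin (-1.17 ± 0.11), were lower. Because Plod2 and Lox are known hypoxia targets, 16 hypoxia response genes were read beside them. Here 4 were higher and 4 lower in PDPN+BP3+ cells (median 0.07), with Ndrg1 at 0.98 ± 0.13 and Adm, the peptide adrenomedullin, at -2.90 ± 0.17. In PDPN+BP3- against PDPN- cells 5 were higher and 5 lower in thymus (median -0.17), with Adm at 2.73 ± 0.17. In lymph node 5 were higher and 3 lower in that comparison (median 0.20), with Adm at 5.03 ± 0.17. The part of hypoxia was not tested.

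Against PDPN- cells, which are the same 3 lymph node arrays as above, PDPN+BP3+ cells were higher in 3 of the 7 genes and lower in 1, where 27.3% of all genes passed, 16.1% as higher and 11.2% as lower. Loxl1 (2.12 ± 0.16, adjusted p 2.96e-08) and Plod2 (1.59 ± 0.14, adjusted p 1.47e-07) were higher and Loxl2 was lower (-1.59 ± 0.11, adjusted p 7.18e-09). Plod3 was higher by 0.39 ± 0.14 (adjusted p 0.0449) and passed in 8 of 14 alternatives (adjusted p 0.0154 to 0.155). It was lost with a trended and robust prior and without any 1 of PDPN- replicates 2 and 3 and PDPN+BP3+ replicates 1 and 2. Lox stood at -0.02 (95% interval -0.43 to 0.38, adjusted p 0.955), Loxl4 at -0.01 (95% interval -0.63 to 0.61, adjusted p 0.991) and Plod1 at -0.20 (95% interval -0.47 to 0.07, adjusted p 0.303). The arrays were separate for 4 genes, as for 39.0% of all genes, and the Loxl2 value was -0.97 with its rows averaged.

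In this comparison 10 of 10 pericyte markers were lower in PDPN+BP3+ cells, and of the 6 fibroblast markers 2 were higher and 1 lower; their part in the result was not tested. Of the 12 substrates 1 was higher, Col1a2 (0.56 ± 0.11), and 1 lower, Col5a3 (-1.10 ± 0.13). The modification and folding list still had 9 of 16 genes higher and 3 lower (median 0.50, against 0.00 over all genes), the lower ones being Colgalt2 (-3.30 ± 0.16), Tmem38b (-2.24 ± 0.24) and P3h2 (-1.53 ± 0.18). Of the 13 processing genes 6 were higher, among them Fmod (2.46 ± 0.18) and Fbln5 (2.46 ± 0.19), and 2 lower, among them Adamts14 (-1.70 ± 0.11). Of the type IV chains 3 of 6 were lower and none higher, namely Col4a2 (-0.86 ± 0.14), Col4a1 (-0.68 ± 0.18) and Col4a5 (-0.48 ± 0.14). Of the hypoxia genes 6 of 16 were higher, with Vegfa at 3.09 ± 0.13, and 4 lower.

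**Figure D3:**
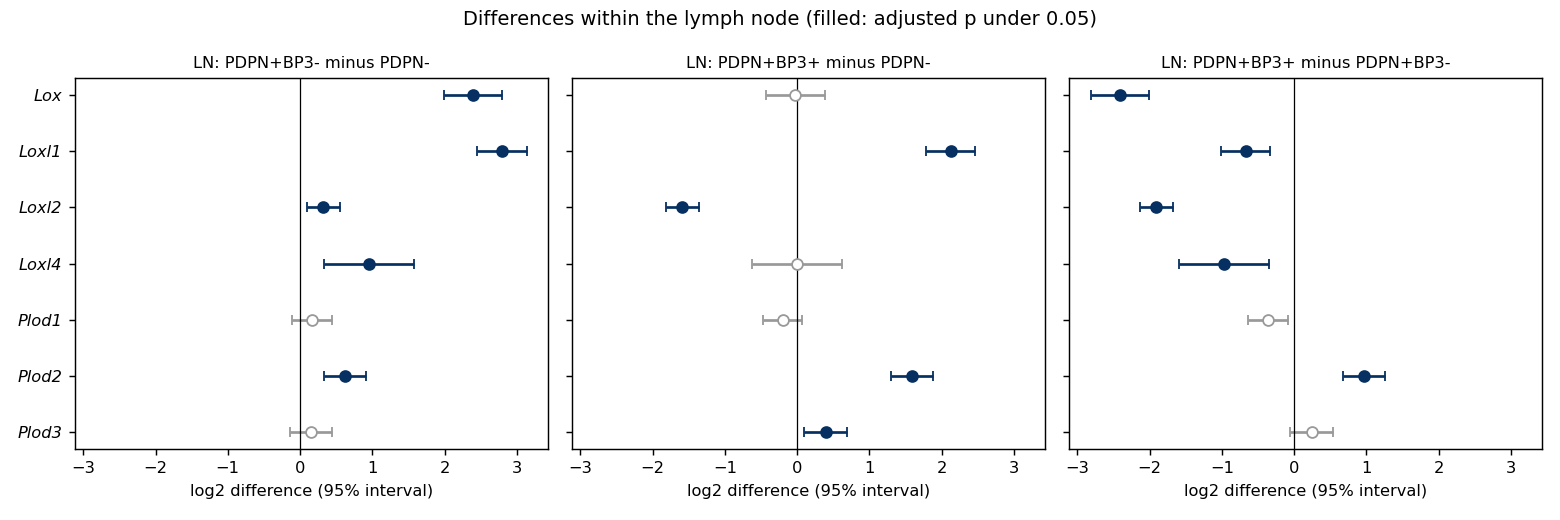
Log2 differences with 95% intervals of the 7 genes in the 3 comparisons within the lymph node; filled points passed an adjusted p of 0.05. Lox is higher in PDPN+BP3- cells and level between PDPN+BP3+ and PDPN- cells, Loxl2 is lower in PDPN+BP3+ cells than in both other populations, and Plod2 is higher in PDPN+BP3+ cells than in both.

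How the tissues differ was asked within each subset. Among PDPN+BP3- cells 4 of the 7 genes were lower in lymph node than in thymus and none higher, where 17.1% of all genes passed, 11.8% as higher and 5.29% as lower. Plod1 differed most (-2.15 ± 0.13, adjusted p 7.19e-09), then Plod2 (-1.26 ± 0.14, adjusted p 5.42e-06), Loxl4 (-1.24 ± 0.29, adjusted p 0.00717) and Loxl2 (-0.46 ± 0.11, adjusted p 0.00610). Lox (-0.06, 95% interval -0.46 to 0.35, adjusted p 0.892), Loxl1 (0.03, adjusted p 0.925) and Plod3 (-0.27, 95% interval -0.56 to 0.02, adjusted p 0.216) did not pass. The arrays were separate for 4 genes, as for 29.2% of all genes. Loxl4 was lost in a fit on these groups alone (adjusted p 0.0734) and stood at -0.79 without thymic PDPN+BP3- replicate 3. Loxl2 was lost with its rows averaged (-0.26, adjusted p 0.0651). Plod3 passed in 3 of 14 alternatives, among them cyclic loess (-0.50, adjusted p 0.00524). Of all calls 30.9% were lower in lymph node, and 53.9% after cyclic loess, under which Loxl1 stood at -0.18.

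Among PDPN- cells Loxl1 was higher in lymph node (1.48 ± 0.16, adjusted p 1.10e-05) and Plod1 lower (-0.99 ± 0.13, adjusted p 7.18e-05), where 9.61% of all genes passed, 4.42% as higher and 5.19% as lower. Plod1 was thus lower in lymph node in both subsets. These comparisons share no array, but they share the estimate of the spread and the confounding of tissue with pool size. The other 5 genes did not pass, with Lox at 0.46 ± 0.19 (adjusted p 0.161, and 0.0436 after cyclic loess) and Loxl2 at -0.22 ± 0.11 (adjusted p 0.263). The arrays were separate for 3 genes, Loxl1, Loxl2 and Plod1, as for 24.7% of all genes. Col1a1 was higher in nodal PDPN- cells (2.25 ± 0.13), with Col1a2 (0.67 ± 0.11) and Col3a1 (0.67 ± 0.13), among 4 of 12 substrates that were higher and none that was lower. In PDPN+BP3- cells 2 of 12 were higher, such as Col11a1 (0.73 ± 0.11), and 3 lower, such as Col5a3 (-1.13 ± 0.13) and Eln (-1.08 ± 0.14).

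T lineage and epithelial markers moved with tissue in both subsets. Of 6 measured T lineage markers 5 were lower in lymph node in each subset, with list means per array of 3.38 to 4.91 in thymic PDPN+BP3- cells, 4.86 to 5.57 in thymic PDPN- cells and 2.68 to 2.93 in all lymph node populations. Of 6 epithelial markers 5 were lower in PDPN+BP3- and 6 in PDPN- cells of lymph node, with list means of 3.64 to 4.99 in thymus and 2.73 to 2.98 in lymph node. Other markers moved too. Between the PDPN- cells 4 of 6 fibroblast markers were higher in lymph node and none lower, with list means of 5.77 to 5.97 against 3.95 to 4.47, and of 10 pericyte markers 1 was higher and 3 lower. Between the PDPN+BP3- cells 7 of 10 pericyte markers were higher in lymph node and 2 lower (6.20 to 6.55 against 5.49 to 5.67), 4 of 7 endothelial markers were higher (4.28 to 4.73 against 3.26 to 3.61) and 2 of 6 fibroblast markers were lower. The part of these markers in the differences of Plod1, Plod2, Loxl1, Loxl2 and Loxl4 was not tested.

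The last pair of podoplanin-positive populations, nodal PDPN+BP3+ against thymic PDPN+BP3- cells, differs in both tissue and BP3. Of the 7 genes 5 had lower signals in the PDPN+BP3+ cells and none a higher one, where 28.6% of all genes passed, 19.4% as higher and 9.14% as lower. Plod1 (-2.51 ± 0.13, adjusted p 3.22e-10), Lox (-2.47 ± 0.19, adjusted p 3.84e-08), Loxl2 (-2.37 ± 0.11, adjusted p 6.43e-11) and Loxl4 (-2.20 ± 0.29, adjusted p 2.29e-05) were lower by more than Loxl1 (-0.64 ± 0.16, adjusted p 0.00643). Plod3 stood at -0.03 (95% interval -0.32 to 0.26). The arrays were separate for 5 genes, as for 38.8% of all genes. The lower genes were 6 without thymic PDPN+BP3- replicate 1, with Plod2 at -0.43, and also after cyclic loess (Plod2 -0.56), after quantile scaling (-0.47) and with array weights (-0.40). Of all calls 32.0% were lower in PDPN+BP3+ cells, and 53.1% after cyclic loess. Of all tested genes 13.7% passed as lower after cyclic loess and 12.3% after quantile scaling. The Loxl2 value was -1.46 with its rows averaged. All 6 fibroblast, 5 of 6 T lineage and 4 of 6 epithelial markers were lower in PDPN+BP3+ cells. Of 10 pericyte markers 7 were higher and 2 lower. The part of these markers was not tested. The fibrillar collagen genes that were lower included Col5a3 (-2.03 ± 0.13), Col5a2 (-1.56 ± 0.11) and Col3a1 (-1.43 ± 0.13), among 7 of 12 that were lower and none that was higher.

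The remaining 3 pairs differ in both tissue and podoplanin or BP3 status and share arrays with the comparisons above. No alternative was run for the single genes of these pairs, and 3 of their calls lay near the threshold: Plod3 at 0.0296 in the first pair, Plod2 at 0.039 in the second and Plod3 at 0.034 in the third (adjusted p). Nodal PDPN- cells were lower than thymic PDPN+BP3- cells in all 7 genes, where 29.3% of all genes passed, 17.5% as higher and 11.8% as lower, and the arrays were separate for 7 genes, as for 34.7% of all genes. Nodal PDPN+BP3- cells were higher than thymic PDPN- cells in 4 genes, Lox, Loxl1, Loxl4 and Plod2, and lower in Plod1, where 23.2% of all genes passed, 12.2% as higher and 11.0% as lower. Separate arrays were seen for 5 genes, as for 38.4% of all genes. Nodal PDPN+BP3+ cells were higher than thymic PDPN- cells in Loxl1, Plod2 and Plod3 and lower in Loxl2 and Plod1, where 26.9% of all genes passed, 14.4% as higher and 12.5% as lower. Again 5 genes had separate arrays, as had 42.4% of all genes.

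**Figure D4:**
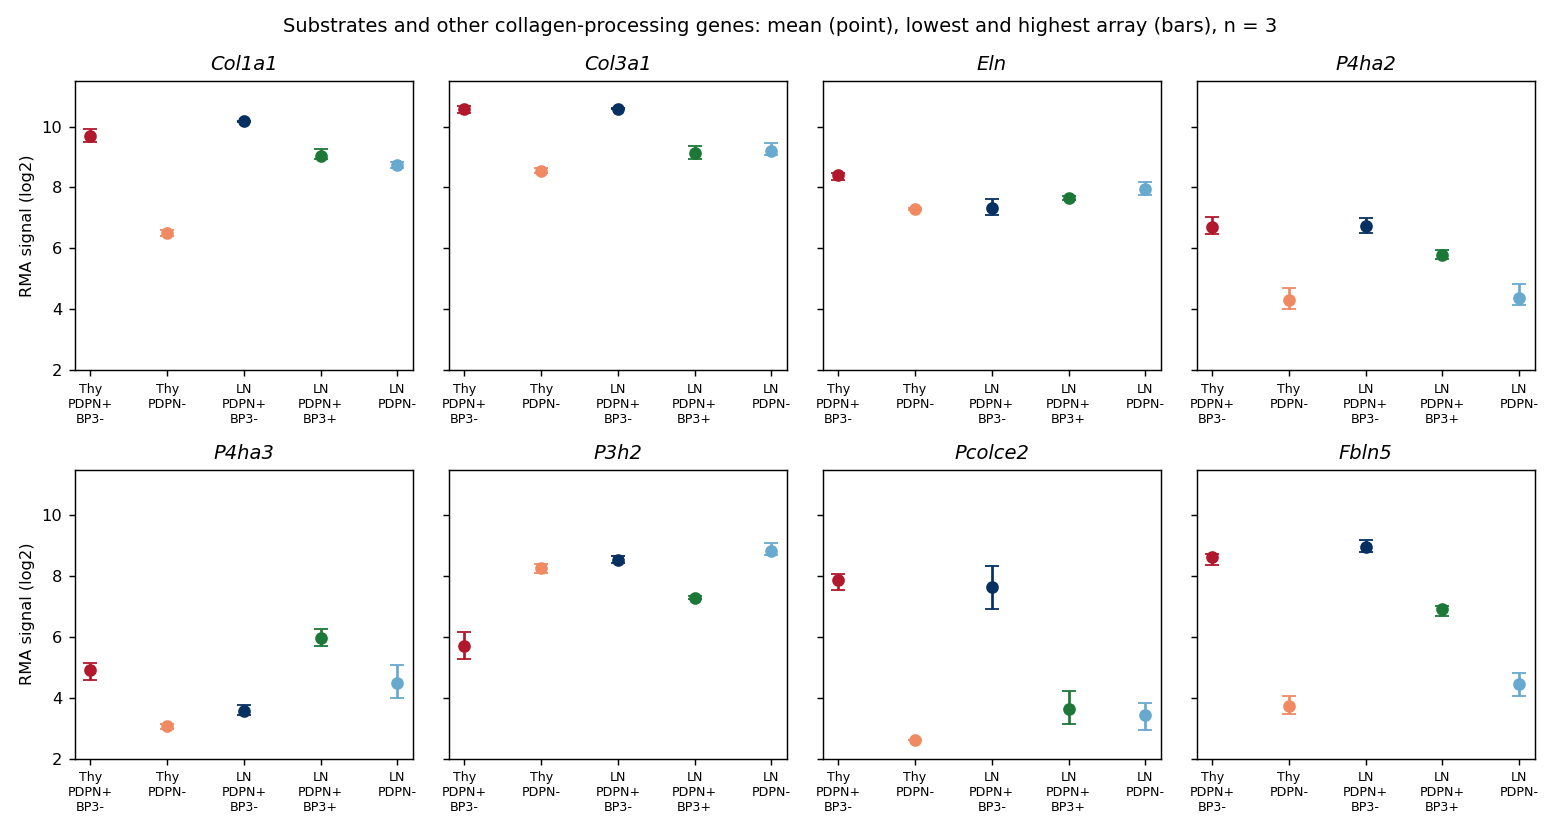
RMA signal on a log2 scale of 8 substrate and collagen-processing genes in the 5 populations; points are means of 3 arrays and bars run from the lowest to the highest array. Col1a1, Col3a1, P4ha2, Pcolce2 and Fbln5 are highest in the PDPN+BP3- cells of both tissues, P4ha3 is highest in nodal PDPN+BP3+ cells, and P3h2 is lowest in thymic PDPN+BP3- cells.

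The 7 genes did not follow a common pattern. Over the 15 arrays, which fall into the 5 populations, Pearson correlations between pairs of them ranged from -0.176 for Loxl2 and Plod2 to 0.870 for Plod2 and Plod3, with 0.851 for Lox and Loxl4 and 0.792 for Lox and Loxl1. These and the following are descriptions of likeness over the same arrays, without a test. The genes most like Lox were Man2a1, a Golgi mannosidase (0.982), Clec11a, a secreted growth factor (0.982), and Pcolce2 (0.980). The means of Pcolce2 were 7.89 (thymus) and 7.63 (lymph node) in PDPN+BP3- cells, against 2.61 to 3.64 elsewhere. Most like Loxl1 were Fam102b (0.989), the matrix protein Svep1 (0.987) and the sarcoglycan Sgcd (0.987).

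Loxl2 was most like the laminin chain Lama2 (0.991), the metalloprotease Adam19 (0.988) and the growth factor Igf2 (0.982). The mean of Lama2 was 2.73 in nodal PDPN+BP3+ cells, and elsewhere the means were 8.10 to 9.81. Loxl4 was most like the proprotein convertase Pcsk6 (0.964), Pdzrn3 (0.959) and the junction protein Jam2 (0.957). Plod1 was most like the guidance ligand Slit2 (0.969), Tmem204 (0.960) and the transcription factor Hlf (0.957), and Slit2 averaged 8.38 and 6.01 in the thymus populations and 2.63 to 4.08 in lymph node. Plod2 was most like the semaphorin receptor Plxnc1 (0.980), Hacd4 (0.977) and Tmem132c (0.968). For Plod3 the closest genes were less alike, with Ppa1, a pyrophosphatase, at 0.890, C1rl at 0.885 and Sec13, a coat protein of secretory vesicles, at 0.879.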

How the data were processed

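The deposited values are log2 signals, 1 array per column, made by the authors with RMA in the Affymetrix Expression Console, per the submitters' processing notes; no version is given in the sources used here, nor a genome build. The log base is inferred from the range of 1.07 to 12.07. Per the labels' protocols, RNA was amplified with an Ovation Pico WTA kit and hybridised to Affymetrix Mouse Gene ST arrays; amplification and summarisation may compress differences. No measure of background was used, so dim signals such as those of Loxl4, Col11a1, Col4a3 and Aoc2 need not stand above it. Log2 differences are not ratios of RNA.

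Of 24758 transcript clusters 20844 had 1 gene symbol, 1735 several and 2179 none in the platform annotation; 18718 genes were tested, with no filter on low values. Limma 3.58.1 in R 4.3.3 fitted 1 mean per population over all 15 arrays, with empirical Bayes shrinkage without a trend, tested on simulated data. P-values were adjusted over all genes at a threshold of 0.05; an exact permutation test of 3 against 3 cannot go below 0.10. All 10 pairs of populations and 1 interaction were tested. The small number of arrays limits the precision.

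The genes and lists were chosen with earlier results of these data known. All 7 measured genes were tested in every comparison, and some that did not pass are not named. From each list and comparison up to 3 genes may be named. These have the smallest adjusted p among those past the threshold with separate arrays. For each measured gene the 3 most alike over the arrays are named. Antigen receptor segments, small RNAs, predicted genes and vomeronasal or olfactory receptors were left out of these. The 4 sort antigen genes check the labels. Ppib, Fkbp10, Adamts2, Efemp2, Lck and Rag1 had no row with 1 symbol and are not analysed here. No arrays held identical values, and arrays of 1 population correlated at 0.987 to 0.995 across genes. Alternatives were cyclic loess, quantile scaling, a filter on dim genes, a fit on the compared groups only, another prior, the replicate number as a block, array weights, averaging a gene's rows, and leaving out each array.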

Additional observations from a re-analysis of the deposited data

Results flagged for a closer look

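For 4 genes the gap between the PDPN+BP3- and PDPN- subsets was not the same in thymus and lymph node, by limma's test of that difference. The lymph node difference minus the thymus difference was -1.45 for Loxl1, -1.41 for Loxl4, -1.16 for Plod1 and -1.05 for Plod2. Loxl4, whose signal was dim, passed this test in 13 of 20 alternatives, and Loxl1, Plod1 and Plod2 passed in all 20. For Loxl1 the PDPN- populations of the tissues were apart, and for Plod2 and Loxl4 the PDPN+BP3- populations were. For Plod1 both subsets were lower in lymph node, at -2.15 in PDPN+BP3- and -0.99 in PDPN- cells.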

How the results depend on the processing

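Of 448 differences of the 7 genes, from 7 of the 10 pairs of populations and the interaction, recomputed under alternatives other than leaving out an array, 418 kept their sign and their side of the threshold, 12 were no longer past it, 12 came past it and 6 changed sign; of 378 with 1 array left out these numbers were 335, 27, 2 and 14. Every change of sign was of a difference that did not pass. After cyclic loess 2 genes, Lox and Loxl1, were higher in lymph node than in thymic PDPN- cells, as were 6.23% of all genes. Under that scaling 7 genes had a smaller subset difference in lymph node, where 6.37% of all genes passed the interaction with a negative sign. The cause was not tested. With 1 array left out, the number of genes higher in nodal PDPN+BP3- than in PDPN- cells was 3 to 4. Signs changed for Loxl1 between the PDPN+BP3- cells of the tissues (-0.18 after cyclic loess, -0.08 after quantile scaling and with array weights, and -0.14 to 0.13 with 1 array left out), and for Lox in the same comparison (-0.25 to 0.04). They also changed for Lox in nodal PDPN+BP3+ against PDPN- cells (0.06 with array weights, -0.17 to 0.13 with 1 array left out) and for Loxl4 there (0.04 after quantile scaling, -0.09 to 0.13). The others were Plod3 between the PDPN- cells of the tissues (-0.02 with array weights, -0.05 to 0.14) and between nodal PDPN+BP3+ and thymic PDPN+BP3- cells (-0.17 to 0.06). The labels' replicate numbers were not shown to pair the samples: 6 of 30 same-numbered pairs had deviations that correlated above 0.1 (-0.174 to 0.288). With the replicate number as a block the number of passing steps between neighbouring populations was 12, as without it, Loxl2 in nodal PDPN+BP3- against PDPN- cells had an adjusted p of 0.0540 and Plod3 in PDPN+BP3+ against PDPN- cells 0.0562, and Plod1 passed between PDPN+BP3+ and PDPN+BP3- cells (adjusted p 0.0394). Signal limits Loxl4 most, whose means lay below the table's median in all populations but 1.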

Other observations

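Among genes of copper handling, Atp7a averaged 6.81 in nodal PDPN- cells and 5.29 to 5.47 in the other populations, and it was higher in lymph node than in thymic PDPN- cells (1.35 ± 0.15). The amine oxidase Aoc3 had a mean of 7.58 in thymic PDPN+BP3- cells, against at least 8.87 on every array of the other populations; it was higher in lymph node than in thymic PDPN+BP3- cells (1.53 ± 0.14). The proteoglycan Fmod was lowest in thymic PDPN+BP3- cells (mean 5.38) and highest in nodal PDPN+BP3+ cells (mean 9.92), with means of 7.47 to 8.47 elsewhere. The prolyl 3-hydroxylase P3h2 had its lowest mean, 5.70, in thymic PDPN+BP3- cells, where Plod1 had its highest; elsewhere the means of P3h2 were 7.30 to 8.83.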
